A study of Homo sapiens with 12 samples.

Results

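The TGM2 locus was taken as every H3K4me2 peak of 4 deposited peak lists that overlapped the TGM2 gene body or lay within 50 kb of its canonical start site. These were 51 of 289523 peaks, 8 of them from the list for DMSO, 13 from that for ATRA, 8 from Corin and 22 from the combination (ATRA+Corin). Peaks that overlapped or touched were merged across the lists, which placed the 51 peaks in 26 of 84577 regions, numbered here 1 to 26 from the upstream end of the window. TGM2 (ENSG00000198959.12) is on the minus strand of chromosome 20 from 38127385 to 38166578 on GRCh38, and its canonical transcript starts at 38165270. The window from 38115270 to 38215270 holds the whole gene. TGM2 was selected on how its number of peaks changed between these same lists, so its counts are a description and carry no test.

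The cells were U-937, 1 established human acute myeloid leukaemia line of the monocytic lineage. All groups were treated for 24 h, with the vehicle DMSO, with all-trans retinoic acid (ATRA) at 0.1 µM, with Corin at 0.1 µM, or with ATRA and Corin at 0.1 µM each. Each treatment had 2 H3K4me2 libraries and 1 input library, 12 libraries in all, and whether the paired libraries came from separate cultures is not given in the sources used here. The deposited values are 1 pooled peak list per treatment. The spread between replicates is therefore unknown, and the text compares lists, not replicated groups. In these bulk samples a larger share of cells with the mark and more of the mark per cell cannot be told apart.

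TGM2 encodes tissue transglutaminase, a calcium-dependent enzyme that cross-links proteins between glutamine and lysine residues, binds GTP, and at the cell surface works with integrins and fibronectin. It is a long-known target of retinoic acid in myeloid cells, where its expression accompanies differentiation. ATRA acts through retinoic acid receptors, which bind direct repeats of a short half-site as heterodimers with retinoid X receptors. Corin is a synthetic inhibitor of the CoREST complex that blocks both its histone demethylase LSD1 and its histone deacetylases. LSD1 removes methyl groups from histone H3 lysine 4, and dimethylation there (H3K4me2) marks promoters and enhancers.

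The lists held 65172 (DMSO), 66385 (ATRA), 73997 (Corin) and 83969 (ATRA+Corin) peaks. Relative to DMSO, the H3K4me2 depth recovered from the deposited fold and −log10 p was 1.02 (ATRA), 1.10 (Corin) and 1.20 (ATRA+Corin), and a deeper library can give more weak peaks. Of 9 monocytic and myeloid marker genes, 7 had a start site under a peak in the DMSO, ATRA and Corin lists and 4 in the ATRA+Corin list. Over all protein-coding genes, the start sites under a peak were 47.3% (DMSO), 48.1% (ATRA), 38.03% (Corin) and 38.02% (ATRA+Corin). Start sites of erythroid markers (0 of 4) and of epithelial and liver markers (0 of 3) were under no peak of any list. CD4, which monocytes also express, was the 1 of 5 T cell markers covered in each list.

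The sequences below are the plus strand of hg38 around summits that the results turn on. Each is 300 bases long. Capitals mark matches to the motifs searched on both strands: the PU.1 core GAGGAA, AP-1 TGANTCA, C/EBP TTGCNNAA, RUNX TGTGGT, GFI1 AAATCA, and direct repeats of the nuclear receptor half-site with spacers of 1, 2 and 5 bases (DR1, DR2 and DR5). The promoter region (14) is shown at its ATRA+Corin summit (chr20:38167951-38168250), 2831 bp upstream of the canonical start, and at the DMSO summit farther upstream (chr20:38168971-38169270), where only the DR1 half-sites are in capitals. Region 6 (chr20:38196311-38196610) is the upstream site that was weakest in the combination list relative to the DMSO list. Regions 21 (chr20:38152146-38152445) and 25 (chr20:38143953-38144252) are the strongest sites inside the gene. Region 13 (chr20:38178002-38178301) is the strongest of the regions that the combination gained over DMSO.
Region 14, ATRA+Corin summit: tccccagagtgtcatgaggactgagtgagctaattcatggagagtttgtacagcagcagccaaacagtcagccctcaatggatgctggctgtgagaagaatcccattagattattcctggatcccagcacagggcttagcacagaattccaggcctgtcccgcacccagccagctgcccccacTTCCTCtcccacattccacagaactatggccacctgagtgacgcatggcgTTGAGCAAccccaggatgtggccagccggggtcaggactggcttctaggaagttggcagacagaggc
Region 14, DMSO summit: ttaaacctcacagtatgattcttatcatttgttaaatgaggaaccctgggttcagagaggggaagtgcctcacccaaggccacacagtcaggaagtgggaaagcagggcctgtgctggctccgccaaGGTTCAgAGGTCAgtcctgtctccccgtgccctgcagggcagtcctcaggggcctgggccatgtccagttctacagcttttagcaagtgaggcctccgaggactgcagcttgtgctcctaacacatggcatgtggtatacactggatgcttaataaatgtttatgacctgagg
Region 6: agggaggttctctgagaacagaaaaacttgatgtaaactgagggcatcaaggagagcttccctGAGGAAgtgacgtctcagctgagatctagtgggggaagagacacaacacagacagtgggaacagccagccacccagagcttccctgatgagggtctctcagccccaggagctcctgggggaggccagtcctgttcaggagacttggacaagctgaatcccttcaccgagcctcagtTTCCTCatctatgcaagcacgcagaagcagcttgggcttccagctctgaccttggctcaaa
Region 21: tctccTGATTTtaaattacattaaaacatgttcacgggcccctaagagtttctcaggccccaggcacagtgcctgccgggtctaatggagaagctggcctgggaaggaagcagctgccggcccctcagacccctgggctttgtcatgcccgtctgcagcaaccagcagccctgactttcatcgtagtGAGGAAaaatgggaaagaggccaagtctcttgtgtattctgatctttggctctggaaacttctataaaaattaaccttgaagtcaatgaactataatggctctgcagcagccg
Region 25: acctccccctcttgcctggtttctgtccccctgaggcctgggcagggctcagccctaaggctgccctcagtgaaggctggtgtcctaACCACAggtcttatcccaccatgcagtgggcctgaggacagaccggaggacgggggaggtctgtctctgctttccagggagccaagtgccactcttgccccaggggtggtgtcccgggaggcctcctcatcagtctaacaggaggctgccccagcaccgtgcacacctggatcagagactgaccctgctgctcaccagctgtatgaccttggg
Region 13: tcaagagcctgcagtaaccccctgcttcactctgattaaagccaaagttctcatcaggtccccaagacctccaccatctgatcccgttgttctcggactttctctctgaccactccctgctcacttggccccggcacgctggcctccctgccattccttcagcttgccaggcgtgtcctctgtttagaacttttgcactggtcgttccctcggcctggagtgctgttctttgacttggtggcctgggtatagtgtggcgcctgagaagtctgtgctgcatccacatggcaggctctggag

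The comparison of each treatment with DMSO asked where H3K4me2 peaks appeared around TGM2. The 5 regions of the DMSO list were present in all 4 lists: a site 31436 bp upstream (region 6), the promoter (14), and sites in intron 3 (21), intron 6 (25) and intron 8 (26). To these the ATRA list added 6 regions, all upstream of the promoter. The Corin list added 3 regions, also all upstream. The ATRA+Corin list added 17, of which 8 were upstream and 9 inside the gene. None of the 3 lists lost a DMSO region. By pattern, 14 regions were in the ATRA+Corin list alone, 3 in the ATRA list alone (4, 7 and 12), 1 in the Corin list alone (5), 1 in the ATRA and ATRA+Corin lists (11) and 2 in all 3 drug lists (2 and 13). The share of each pattern over all regions of the genome is not given here, so nothing is read from these pattern counts.

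Over the genome, regions were gained more often than lost in each comparison. Of regions in the ATRA or the DMSO list, 16.4% were gained in ATRA and 7.58% lost, beside 6 and 0 of 11 at TGM2. For Corin against DMSO 22.4% were gained and 7.46% lost, beside 3 and 0 of 8. For ATRA+Corin against DMSO 34.9% were gained and 4.55% lost, beside 17 and 0 of 22. Against ATRA alone the combination gained 28.4% of regions and lost 4.97%, beside 14 gained and 3 lost of 25 at TGM2. Against Corin alone it gained 24.0% and lost 6.59%, beside 15 gained and 1 lost of 23. These comparisons share lists, the first 3 the DMSO list and the last 3 the ATRA+Corin list, and nothing is read from the shares because the same contrasts chose the gene.

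**Figure D1:**
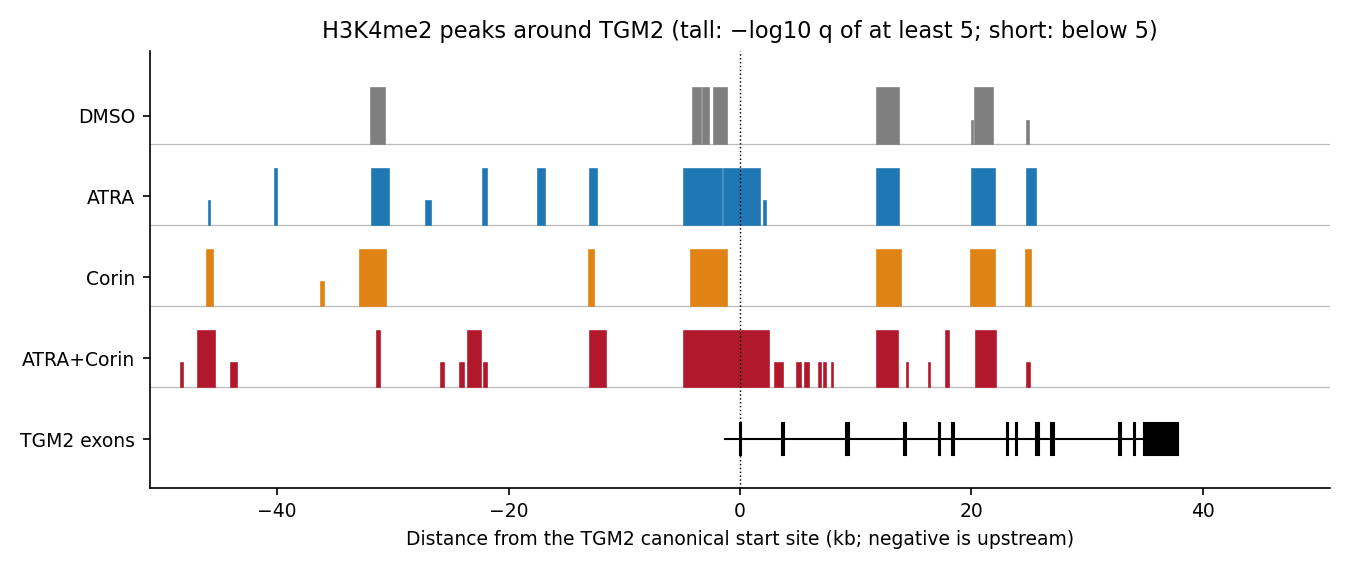
Peaks of the 4 lists (rows) against distance from the canonical TGM2 start site in kb, with upstream to the left and the exons of the canonical transcript below. Tall bars have a deposited −log10 q of at least 5 and short bars less. The 5 DMSO regions recur in every row, and most of the peaks that only the ATRA+Corin list holds are short bars.

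The bases under peaks in the window numbered 7948 (DMSO), 16170 (ATRA), 11961 (Corin) and 21587 (ATRA+Corin), or 7.95%, 16.2%, 11.96% and 21.6% of it. Bases and regions ordered the lists alike. The ATRA list exceeded the DMSO list mostly at the promoter, where it covered 6847 bp compared with 2606 bp. Inside the gene and outside the promoter region, the covered bases were 4093 (DMSO), 4907 (ATRA), 4824 (Corin) and 7449 (ATRA+Corin). Upstream of the promoter region they were 1249, 4416, 3994 and 6642. The 12115 bases of the window downstream of the gene held no peak in any list.

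**Figure D2:**
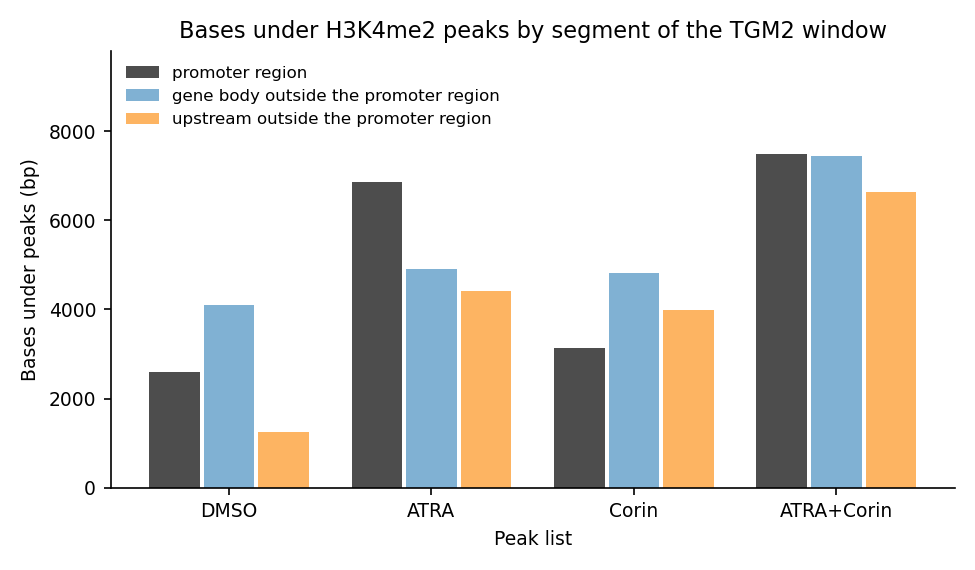
Bases under H3K4me2 peaks (bp) in 3 segments of the window for each peak list. At the promoter the ATRA (6847 bp) and ATRA+Corin (7496 bp) bars stand well above the DMSO (2606 bp) and Corin (3143 bp) bars, whereas inside the gene only the ATRA+Corin bar stands apart.

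The promoter region (14) runs from 38162720 to 38170221, 4951 bp upstream to 2550 bp downstream of the canonical start. After DMSO it held 3 peaks, of 1217, 618 and 771 bp, all upstream of the canonical start, the nearest ending 1118 bp from it. After Corin it held 1 peak of 3143 bp that ended 1145 bp short of the start. After ATRA it held 3 peaks of 3374, 3158 and 315 bp, and the one of 3158 bp lay over the canonical start and the first exon. After ATRA+Corin it was a single peak of 7496 bp that reached from the far upstream part into intron 1. That peak was wider than all but 547 of the 83969 peaks of its list (0.651%), compared with a list median of 848 bp.

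The canonical start site was thus under a peak in the ATRA and ATRA+Corin lists and in neither other list. Of 19962 protein-coding start sites, 154 (0.771%) had this pattern, which was singled out after the TGM2 values were seen. Start sites of 2 alternative coding transcripts, 1238 and 1308 bp upstream, were under a peak in all 4 lists. Coverage thus differed between the lists at the canonical start and not at these 2 upstream starts, although peak widths also differed upstream.

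Fold enrichment, score, −log10 p and −log10 q come from the authors for each peak and serve below to describe or rank peaks within 1 list. The fold and −log10 p were also solved for the whole number of H3K4me2 fragments at each summit, given below scaled to the DMSO depth with a 95% Poisson interval that covers counting error only. At the strongest summit of the promoter region there were 54 fragments after DMSO (40.6 to 70.5, the same at its next summit), 106 after ATRA (87.2 to 128), 80.2 after Corin (64.3 to 98.8) and 93.4 after ATRA+Corin (76.9 to 112). The ATRA and ATRA+Corin intervals lay above the DMSO interval and overlapped each other, and the Corin interval overlapped all 3. The input background was scaled to the DMSO input depth, so its units differ from those of the H3K4me2 fragments. At this summit it was 11.8 in the Corin input compared with 1.82 (DMSO), 1.99 (ATRA) and 2.25 (ATRA+Corin). With it the deposited fold was 3.94 for Corin and 12.02, 22.9 and 18.5 for DMSO, ATRA and ATRA+Corin. The part of the input in the low Corin fold was not tested, and the summits of the 4 lists lay at different bases of the region.

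The strongest site of the locus in the DMSO, ATRA and Corin lists was region 21 in intron 3, from 38151346 to 38153538. It is an intragenic site 12404 bp downstream of the start at its DMSO summit. Its −log10 q, within the respective lists, was 95.1 (DMSO), 106 (ATRA), 84.3 (Corin) and 21.5 (ATRA+Corin). The scaled fragments were 162 after DMSO (138 to 189), 159 after ATRA (136 to 186), 115 after Corin (95.7 to 137) and 72.6 after ATRA+Corin (58.1 to 89.5). DMSO and ATRA were nearly equal, both single drugs lay above the combination, and the combination interval overlapped none of the others. The peak kept about the same width in every list, from 1964 to 2134 bp. The scaled input background was 7.08 after ATRA+Corin, 4 after DMSO, 4.10 after ATRA and 2.55 after Corin, and its part in the lower −log10 q was not tested. The ATRA+Corin summit lay at 38152296, and those of DMSO, ATRA and Corin at 38152866, 38152666 and 38152851. Fragments and background are thus read at different bases of the region.

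Region 25 in intron 6, from 38143091 to 38145396, had the same order. It held 119 scaled fragments after DMSO (98.6 to 142), 118 after ATRA (97.9 to 141), 96.6 after Corin (79.1 to 117) and 67.6 after ATRA+Corin (53.7 to 84.0). The 4 summits lay between 38144091 and 38144110, so these counts belong to nearly the same place. The ATRA+Corin interval lay below those of DMSO and ATRA and overlapped that of Corin. Its −log10 q was 70.6, 85.0, 56.9 and 38.4 within the DMSO, ATRA, Corin and ATRA+Corin lists, the second highest of the locus in each.

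Region 6 lay between TGM2 and KIAA1755, from 38195642 to 38198228. Of the 5 shared regions it had the lowest ratio of scaled fragments in the combination over DMSO. It held 81 scaled fragments after DMSO (64.3 to 101), 45.3 after ATRA (33.1 to 60.4), 71.1 after Corin (56.2 to 88.7) and 27.5 after ATRA+Corin (18.95 to 38.7). Both lists with ATRA were low, and their intervals lay below that of DMSO. The peak covered 1249 bp after DMSO, 1522 bp after ATRA, 2384 bp after Corin and 300 bp after ATRA+Corin. Its −log10 q was 5.67 after ATRA+Corin compared with 42.2 after DMSO. The summits lay at 38196706 (DMSO), 38196643 (ATRA), 38196994 (Corin) and 38196461 (ATRA+Corin), so the counts are read at different bases. The ATRA+Corin peak, from 38196390 to 38196689, did not reach the DMSO summit. In the same order the scaled input background was 2.62, 3.49, 2.27 and 3.51, and its part was not tested.

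Region 26 in intron 8, from 38139697 to 38140610, was the weakest of the 5 shared regions. Its scaled fragments were 27 after DMSO (17.8 to 39.3), 26.6 after ATRA (17.5 to 38.6), 26.4 after Corin (17.7 to 38.0) and 22.5 after ATRA+Corin (14.8 to 32.8). The 4 intervals overlapped. It is an example of a site whose −log10 q differed between lists, at 2.01, 7.86, 9.22 and 3.68, with nearly equal fragments and a scaled input background of 6, 2.46, 2.21 and 3.54.

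**Figure D3:**
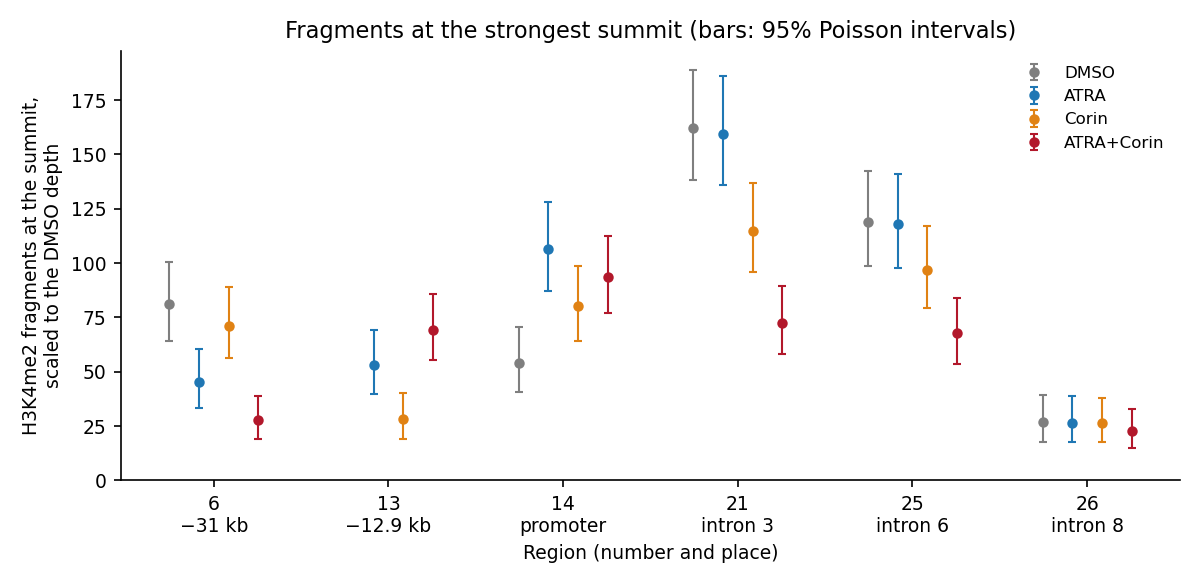
H3K4me2 fragments at the strongest summit of 6 regions, scaled to the DMSO depth, for each list; bars are 95% Poisson intervals of the counts and region 13 has no DMSO peak. In regions 21 and 25 the ATRA+Corin point is the lowest of the 4 and the DMSO and ATRA points are level, and at the promoter (14) the DMSO point is the lowest.

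These ratios were set beside the 41825 regions that all 4 lists hold with recovered fragments. On the log2 scale, scaled fragments in ATRA+Corin over DMSO differed by −1.56 in region 6, −1.16 in region 21, −0.82 in region 25, −0.26 in region 26 and 0.79 in the promoter region. The median over all shared regions was 0.22, with 5% of them below −0.54 and 5% above 1.12. The promoter ratio was within that range, with 86.1% of shared regions lower. Only 27 shared regions (0.0646%) were lower than region 6, 148 (0.354%) were lower than region 21 and 611 (1.46%) lower than region 25. For ATRA over DMSO the ratio was −0.02 in region 21 and −0.01 in region 25, −0.84 in region 6 and 0.98 at the promoter, beside a median of 0.37. Thus the list with the most peaks around TGM2 had the fewest fragments at the shared regions 6, 21 and 25. This did not extend to region 13, which DMSO lacks and where the combination had the most fragments. These ratios were looked at after the counts and rest on 1 summit per region and list.

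The regions gained in the combination list were mostly weak within it. The 17 peaks gained against DMSO had a median −log10 q of 3.15, from 1.47 to 24.2, held 15 to 83 fragments at the summit before scaling and had a median width of 384 bp. Of them, 4 (23.5%) had a −log10 q of 5 or more, compared with 42.0% of all 27150 regions that the combination gained. In the 5 regions present after DMSO too, the combination peaks had a median −log10 q of 21.5 and a median width of 1877 bp. Of the 14 regions in the ATRA+Corin list alone, 2 reached 5 (regions 10 and 24). The 6 regions gained in the ATRA list had a median −log10 q of 8.76 and 4 of them reached 5, compared with 46.7% of all regions that ATRA gained.

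Region 13, from 38176847 to 38178424, was the strongest gained region and had no DMSO peak. It lay between region 6 and the promoter, 12882 bp upstream of the start at its ATRA+Corin summit. It held 53.1 scaled fragments after ATRA (39.9 to 69.3), 28.3 after Corin (19.2 to 40.1) and 69.2 after ATRA+Corin (55.2 to 85.8). The ATRA and ATRA+Corin intervals overlapped, and the ATRA+Corin interval lay above that of Corin. Its −log10 q was 27.4 (ATRA), 6.86 (Corin) and 24.2 (ATRA+Corin) within the respective lists. The ATRA+Corin peak was 1499 bp wide, compared with 717 bp after ATRA and 567 bp after Corin.

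Region 2, from 38210624 to 38212171, was the next strongest gained region. It lay over the last exon of the neighbouring gene KIAA1755, in its untranslated part, so its sequence is not shown. Scaled fragments were 19.7 after ATRA (12.02 to 30.4), 20.97 after Corin (13.3 to 31.5) and 48.4 after ATRA+Corin (36.7 to 62.6). The 2 single drugs were level and the combination interval lay above both. The peak was 248 bp wide after ATRA, 644 bp after Corin and 1548 bp after ATRA+Corin. The scaled input background was 5.31 for ATRA+Corin, 2.08 for ATRA and 1.87 for Corin.

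The 3 next strongest gained regions were in the ATRA+Corin list alone. Region 10, 23346 bp upstream, was 1219 bp wide with 25.03 scaled fragments (16.9 to 35.7) and a −log10 q of 8.53. Region 24 in intron 5 was 324 bp wide with 23.4 scaled fragments (15.5 to 33.8) and a −log10 q of 6.82. Region 15 in intron 1 was 794 bp wide with 19.2 scaled fragments (12.2 to 28.8, from 23 counted) and a −log10 q of 4.91. All 3 were within the weaker part of their list, above 39.3%, 33.9% and 23.8% of its peaks by −log10 q.

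The 9 gained regions inside the gene lay between the promoter region and region 25 and none was in another list. Region 15 was in intron 1, regions 16 to 20 were in intron 2, regions 22 and 23 were in intron 4 and region 24 was in intron 5. The 5 regions of intron 2 lay between 4817 and 8092 bp downstream of the start, held 15 to 30 fragments and had −log10 q values of 2.67, 1.51, 2.03, 1.74 and 2.17. Their widths were between 220 and 472 bp. Regions 22 and 23 reached a −log10 q of 2.44 and 3.07. In the DMSO, ATRA and Corin lists these introns held no peak apart from the ATRA peaks of the promoter region.

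Upstream, the ATRA list alone held regions 4, 7 and 12. Region 12, 17156 bp upstream, had 33.5 scaled fragments (23.2 to 46.7) and a −log10 q of 9.16. Region 4, 40126 bp upstream, had 24.6 (15.9 to 36.3) and a −log10 q of 8.87. Region 7, 26799 bp upstream, had 17.7 (10.5 to 28.0) and a −log10 q of 3.58. Region 11, 21955 bp upstream, had 26.6 scaled fragments after ATRA (17.5 to 38.6) and 27.5 after ATRA+Corin (18.95 to 38.7). The fragments were thus alike, whereas the −log10 q was 8.66 and 3.15 and the deposited fold 5.57 and 2.85. Its scaled input background was 2.20 for ATRA and 5.31 for ATRA+Corin. The Corin list alone held region 5, 36084 bp upstream, with 19.1 scaled fragments (11.8 to 29.3) and a −log10 q of 4.95. Regions 1, 3, 8 and 9 were in the ATRA+Corin list alone, at a −log10 q of 4.10, 4.84, 3.61 and 1.47. The upstream regions of the 2 single drugs overlapped only in regions 2, 6 and 13. No share of such overlap over the genome is set beside this, and nothing is read from it.

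The number of regions depended on how weak peaks were treated. With a −log10 q of at least 5 in every list, the regions numbered 4 (DMSO), 9 (ATRA), 7 (Corin) and 8 (ATRA+Corin), so the combination list no longer exceeded the ATRA list. With all lists cut to equal length the regions were 5, 11, 8 and 10. With depth made equal and recomputed −log10 p values from 5 up they were 4, 10, 8 and 11. The net change of ATRA against DMSO was 6 as deposited and 5, 6 and 6 under these settings. That of ATRA+Corin against DMSO was 17 as deposited and 4, 5 and 7, and that of ATRA+Corin against ATRA was 11 and −1, −1 and 1. The bases under peaks kept the order of the lists under all 3 settings, at 16227, 17647 and 17938 bp for ATRA+Corin and 15105, 16170 and 15353 bp for ATRA.

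**Figure D4:**
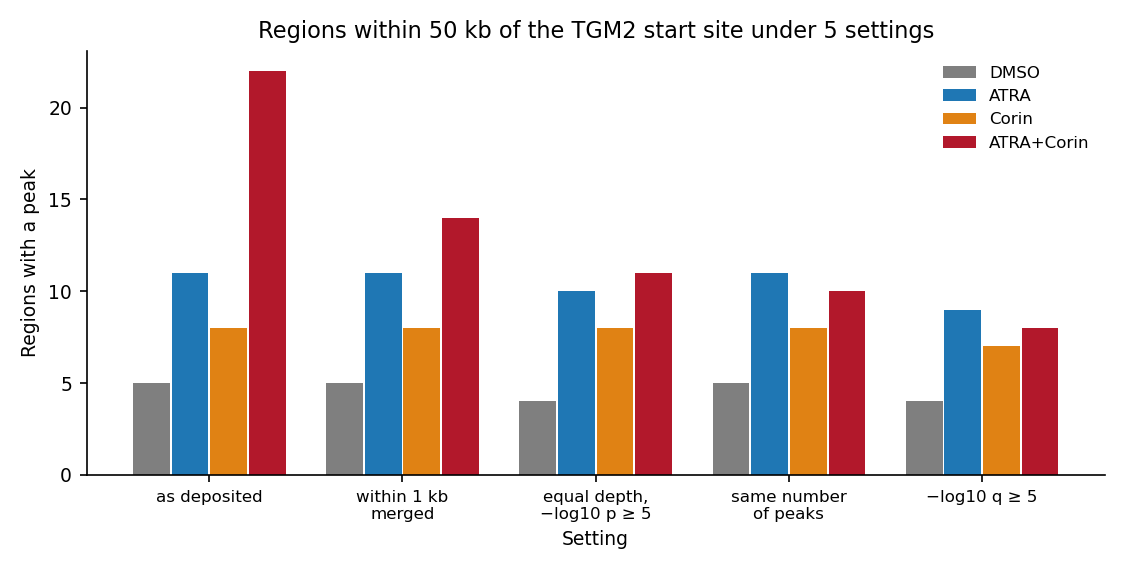
Regions with a peak within 50 kb of the TGM2 start site for each list under 5 settings. The ATRA+Corin bar is 22 as deposited and between 8 and 14 under the other settings, and the ATRA bar is between 9 and 11 throughout.

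TGM2 was then set beside all 19962 protein-coding genes, each with its regions within 50 kb. Its net change of 17 for ATRA+Corin against DMSO was exceeded by 4 genes, with a median of 1 over all genes and a highest value of 22 at RCSD1. A net gain in this contrast was held by 58.8% of genes and a net loss by 5.90%. For ATRA its net change of 6 was exceeded by 2 genes, CAPZB and CAP1 at 7, with a net gain at 30.4% of genes and a net loss at 13.2%. For Corin its net change of 3 was exceeded by 709 genes, with a net gain at 42.4% and a net loss at 10.7%. With a −log10 q of at least 5, 8 genes exceeded TGM2 for ATRA and 416 for ATRA+Corin. With all lists cut to equal length these numbers were 2 and 105, and at equal depth with recomputed −log10 p values from 5 up they were 0 and 63. Ties are not in these numbers. As deposited, 10 other genes equalled TGM2 for ATRA and 4 for ATRA+Corin. In the order of the 3 settings, 36, 6 and 7 did for ATRA, and 564, 148 and 71 for ATRA+Corin. The place of TGM2 near the top thus held for ATRA under these 3 settings and depended on weak peaks for the combination. Among the 1812 genes that also had 5 DMSO regions, 2 genes, TGM2 included, had a net change of at least 17 with the combination. TGM2 was chosen for this change, so its place is a description.

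**Figure D5:**
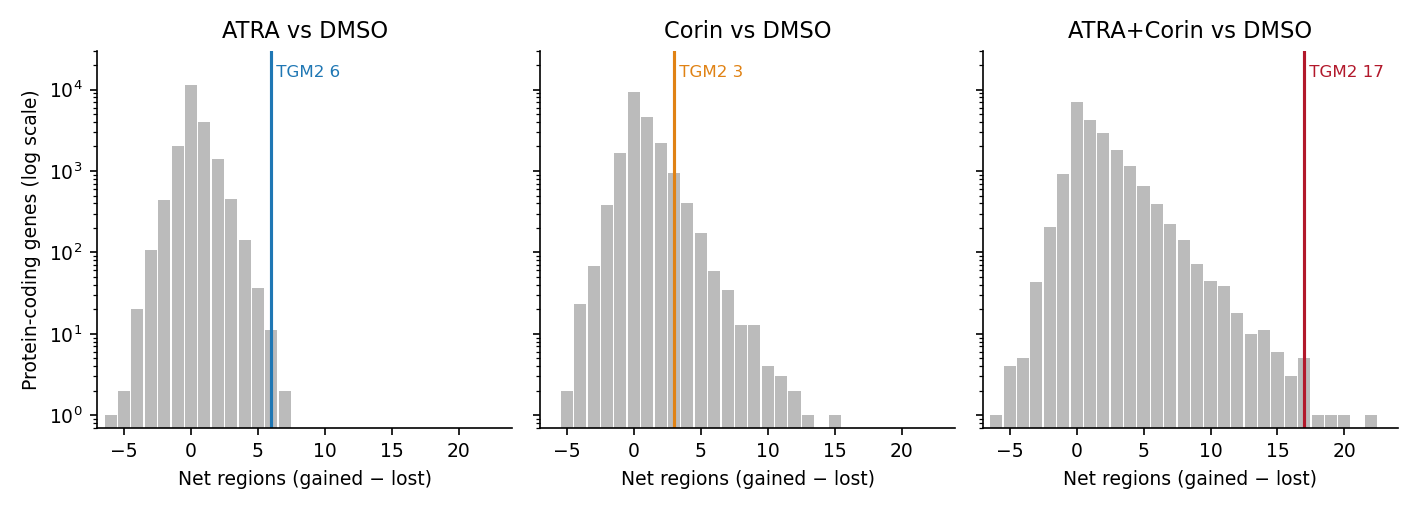
Number of protein-coding genes (log scale) by net regions within 50 kb, gained minus lost against DMSO, for the 3 treatments. Coloured lines mark TGM2 at 6 (ATRA), 3 (Corin) and 17 (ATRA+Corin), toward the far right of the ATRA and ATRA+Corin distributions.

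The 5 genes with region counts most like those of TGM2 over the 4 lists were TACO1, AGFG1, PSAP, APBB1IP and SMOX, by the smallest Euclidean distance between square-root counts. TGM2 had 5, 11, 8 and 22 regions (DMSO, ATRA, Corin, ATRA+Corin). TACO1 was the nearest (distance 0.42), with 6, 10, 8 and 19. The other 4, at distances of 0.48 to 0.49, had 5 to 7 regions in the DMSO list and 19 to 25 in the ATRA+Corin list. Likeness was measured over 4 lists only.

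The other members of the transglutaminase family, 8 enzymes or related proteins, had smaller net changes than TGM2 with ATRA and with the combination. The choice of TGM2 for its change makes such a difference likely for any gene list, so nothing is read from it. In the ATRA list 6 of the 8 had a net gain and none a net loss, with a median of 1 and the highest value at F13A1, the catalytic subunit of coagulation factor XIII, with 4. With Corin 3 had a net gain and 3 a net loss. With the combination 3 had a net gain and 2 a net loss, with a median of 0 and the highest value at TGM6, with 6. Over all protein-coding genes a net gain was held by 30.4%, 42.4% and 58.8% and a net loss by 13.2%, 10.7% and 5.90% in the same order. TGM3 and TGM6, and EPB42, TGM5 and TGM7, are neighbours and can share regions.

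The 7 cell-surface partners and substrates of the enzyme each had a net gain with Corin and with the combination, with medians of 2 and 4, and 4 of 7 had one with ATRA. Of all protein-coding genes, 42.4%, 58.8% and 30.4% had a net gain in these 3 contrasts, with medians of 0, 1 and 0. LRP1, an endocytic receptor, had the highest net change with the combination, at 8. ITGB1, an integrin subunit that binds the enzyme at the surface, had 5 regions in the DMSO list and 5, 7 and 11 in the ATRA, Corin and ATRA+Corin lists. ITGB3, the other integrin subunit listed, had 5, 6, 6 and 6. FN1, which encodes fibronectin, had 1, 1, 2 and 2.

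Of 16 retinoid response genes, 6 had a net gain and 3 a net loss with ATRA, 6 and 0 with Corin, and 11 and 0 with the combination. Their medians were 0, 0 and 2, beside 0, 0 and 1 over all protein-coding genes, of which 30.4%, 42.4% and 58.8% had a net gain. The counts with a net gain are thus near these background shares. DHRS3, a retinaldehyde reductase, was the highest with the combination, at 12, with 6, 9, 7 and 18 regions in the 4 lists. None of the 16 reached the net change of TGM2 in the ATRA or the combination contrast. Because TGM2 was chosen for its change, nothing is read from this. CYP26A1, which degrades retinoic acid, had 3 regions in every list. Region counts leave out width. In the order DMSO, ATRA, Corin and ATRA+Corin, bases under peaks were 2022, 2946, 2814 and 3334 at CYP26A1. They were 6923, 14426, 10269 and 17564 at CD38, with 4 regions in every list, and 980, 3357, 1217 and 4432 at RARB. RARRES1 went the other way with ATRA (2755 bp after DMSO, 2261 bp after ATRA). The medians over all genes were 5429, 6139.5, 6955.5 and 7760.5 bp. Of the 4 nearest protein-coding genes, KIAA1755, whose window overlaps that of TGM2 and shares regions with it, had a net change of 12 with the combination.

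The summit windows were searched for the motifs above, in 26 windows of 300 bases, 1 per region. Of these, 22 are ATRA+Corin summits, and those of regions 4, 5, 7 and 12, which the combination lacks, are ATRA or Corin summits. A PU.1 core was in 9 windows (34.6%), compared with 29.3% of all 83967 ATRA+Corin summit windows. RUNX was in 5 (19.2%, compared with 21.8%), GFI1 in 6 (23.1%, compared with 17.5%), C/EBP in 3 (11.5%, compared with 16.0%) and AP-1 in 3 (11.5%, compared with 9.92%). The 4 windows from other lists hold 3 of the 9 PU.1, 2 of the 6 GFI1 and 1 of the 3 AP-1 windows, so the sets compared are not fully alike. In the sequences shown, the promoter summit of the combination has a PU.1 core and a C/EBP match, region 6 has 2 PU.1 cores on opposite strands, region 21 has a PU.1 core and a GFI1 match, and region 25 has 1 RUNX match. Region 13 has no match. The windows had a median GC content of 54.8%, from 35.7 to 65.7%, compared with 49.3% for all windows.

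No summit window at TGM2 held a DR1, DR2 or DR5 match, and 0.130%, 1.71% and 0.114% of all windows held one. The whole window was therefore scanned, a search chosen after the summit windows had been seen. It held 1 DR1, GGTTCAgAGGTCA on the plus strand at chr20:38169098-38169110, 3828 bp upstream of the canonical start. It lies in the promoter region, under a peak in all 4 lists, 11 bases from the second strongest of the 3 DMSO promoter summits, and is shown in capitals in the DMSO summit sequence. The window also held 2 DR2 matches, both outside every region, and no DR5. Of all gene windows of this size 34.0% held a DR1, 95.4% a DR2 and 19.4% a DR5. A match is a description of the letters and says nothing of binding.

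Peaks lay on both sides of the 50 kb limit. On the upstream side the outermost peak inside it, in the ATRA+Corin list, lay 48123 to 48413 bp from the start site with a −log10 q of 4.10. The first one outside had its near edge 50970 bp away and a −log10 q of 2.18. On the downstream side the last peak inside, 24778 bp from the start site, was the ATRA peak of region 26. The first one outside, an ATRA+Corin peak beyond the end of the gene and 50354 bp from the start site, had a −log10 q of 59.3.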

How the data were processed

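H3K4me2 chromatin immunoprecipitation libraries (8) and inputs (4) of U-937 cells were grouped by the sample titles. The authors deposited 1 peak list per treatment, and per the submitters' processing notes Trimmomatic, Bowtie2, Picard and MACS2 were used with hg38; versions and the peak threshold are not given in the sources used here. Each deposited peak has a score, a fold enrichment (a ratio over input), a −log10 p, a −log10 q and a summit offset, all given by the authors' peak caller. Per the file names, each list is a pooled, overlap-reproducible set.

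The lists were checked against GRCh38: 0 peaks ended past a chromosome on 23 chromosomes. Peaks were merged into regions when they overlapped or touched. Gained regions had a peak after treatment and no peak in the reference list, and lost regions the opposite. Start sites came from GENCODE release 44. Sequences came from the hg38 reference; no promoter sequence of TGM2 is shown from RefSeq, and 1 marker list result and 1 summit sequence are not reported here.

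Depth per library is not given. Fold was read as (fragments + 1)/(background + 1) after scaling and −log10 p as a Poisson tail, and each peak was solved for a whole number of fragments within 0.03, with −log10 p met within 0.001. This solved 99.7% of DMSO, 97.2% of ATRA, 99.99% of Corin and 99.7% of ATRA+Corin peaks, and the unsolved ones nearly all had a −log10 p of 300 or more. The lowest background of each list was assumed to be the genome-wide one. Its ratio to that of DMSO gave the relative input depth, on which every scaled background rests. After division by the list's scaling factor it gave the relative H3K4me2 depth, on which every scaled fragment count rests. Intervals are exact 95% Poisson intervals. The scripts (Python 3.11.15, numpy 2.4.6, scipy 1.17.1, pandas 2.3.3, matplotlib 3.10.9) were tested on simulated data.

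Named regions were those with a DMSO peak, the 3 with the highest −log10 q in each list and the 5 strongest gained by the combination; the other regions are given for completeness. TGM2, the gene lists and these rules were chosen with earlier results of these data known. No test across treatments was possible. The alternatives tried were a stricter −log10 q (at least 5), equal list lengths, peaks within 1 kb merged, the gene body, 100 kb on each side, equal depth, single peaks and reciprocal overlap. Rankings of genes under these settings, fragment ratios, start-site patterns and the whole-window repeat scan were added after the data were seen.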

Additional observations from a re-analysis of the deposited data

How the results depend on the processing

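Of 101 values recomputed under the alternatives, 55 lay within 1.5 times the value as deposited, 44 moved further and 2 changed sign. No paired analysis was possible because each treatment has 1 pooled list.

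With a −log10 q of at least 5, ATRA+Corin regions numbered 8, and the net change of ATRA+Corin was 4 against DMSO, −1 against ATRA and 1 against Corin. With all lists cut to equal length these were 10, 5, −1 and 2. At equal depth, keeping recomputed −log10 p values from 5 up, they were 11, 7, 1 and 3. With that threshold at the deposited depth, added after the data were seen, they were 13, 9, 2 and 5. With peaks within 1 kb merged they were 14, 9, 3 and 6.

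In the gene body alone the regions were 4 (ATRA), 4 (Corin) and 13 (ATRA+Corin), and the covered bases 4284 (DMSO), 8243 (ATRA), 4988 (Corin) and 11308 (ATRA+Corin). The net changes there were 0 for ATRA and 0 for Corin against DMSO, and 9 for ATRA+Corin against DMSO and against Corin. Within 100 kb on each side the regions were 10, 22, 15 and 41 and the covered bases 13102, 29290, 22395 and 46423 for DMSO, ATRA, Corin and ATRA+Corin. The net changes were 12, 5 and 31 against DMSO, and for the combination 19 against ATRA and 26 against Corin. The smaller and larger windows differ by construction. Counted as single peaks, DMSO had 8. With a reciprocal overlap of 50% the net change of Corin against DMSO was 0. The cause of the other movements was not tested.

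Depth limits what the lists can show. A site without a peak is one not called at that depth, and thinning acts on deposited summits only and cannot add peaks. Fragment counts belong to 1 summit per region, and their intervals leave out the spread between libraries, which pooled lists do not hold.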
